A study of Mus musculus with 20 samples.

Results

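Neutrophil elastase (Elane), proteinase 3 (Prtn3), cathepsin G (Ctsg) and myeloperoxidase (Mpo) are 4 genes whose products fill the primary, or azurophil, granules of the neutrophil. All 4 were taken by symbol from 16140 genes listed for the Cxcr4CreER libraries, and Prtn3, Ctsg and Mpo also from 16536 listed for the Cxcr4-GFP libraries. They were chosen by their normalized counts in knockout (KO) and control monocytes. In that contrast their values are therefore given as a description, with no test. RNA came from mouse brain 3 days after permanent photothrombosis, which makes a cortical stroke by lighting up an injected dye that then blocks the vessels.

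The Cxcr4CreER line carries a Cre recombinase that acts after tamoxifen in cells that express Cxcr4, the receptor for the chemokine Cxcl12. It gave 3 libraries of KO monocytes, 3 of control monocytes, 3 of KO microglia and 3 of control microglia, each from 1 mouse. Monocytes of both genotypes are labelled TdT-positive and microglia TdT-negative, so the TdT signal and the population coincide, and KO microglia are TdT-negative cells of KO mice in which deletion was not shown. Cxcr4-GFP reporter mice gave 4 libraries of GFP-positive monocytes and 4 of GFP-negative microglia. These came from single mice, from 2 mice and from a pool of 5. GFP and KO titles share the tag BrKo, which the labels do not explain. Tamoxifen schedule, sex, age and any further sort marker are not given.

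Elane, Prtn3 and Ctsg are serine proteases that degrade microbial and matrix proteins, and Mpo is a haem enzyme that makes hypochlorous acid from hydrogen peroxide and chloride. Their RNA is made early in granulocyte development, at the promyelocyte stage, and in granulocyte-monocyte progenitors, and is largely shut off in mature neutrophils, which keep the proteins in stored granules. The same proteases are known to cleave Cxcl12, Cxcr4 and Vcam1 in bone marrow during the release of haematopoietic cells.

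The 250 bases upstream of each gene's start are shown because a common sequence core occurs in all 4 and because all 4 genes had their highest value in KO monocytes 1. Sequences are from RefSeq (GRCm38.p6), on the strand of the gene, and all 4 genes had an entry. Capitals mark AGGAAGT, the core bound by ETS factors such as PU.1. They also mark CAACGG, which Myb factors can bind, and the box TATAA, found near many starts. Each was searched on both strands, and the matches do not overlap. These cores were chosen after the sequences had been read. The Elane window lies at chr10:79886062-79886311 on the plus strand, Prtn3 at chr10:79879417-79879666 on the plus strand, Ctsg at chr14:56102575-56102824 on the minus strand and Mpo at chr11:87793534-87793783 on the plus strand.
Elane: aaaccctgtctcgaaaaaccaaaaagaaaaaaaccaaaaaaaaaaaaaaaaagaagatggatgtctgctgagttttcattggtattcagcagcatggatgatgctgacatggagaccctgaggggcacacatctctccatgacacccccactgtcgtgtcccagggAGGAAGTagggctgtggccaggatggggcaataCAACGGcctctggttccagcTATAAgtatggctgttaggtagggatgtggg
Prtn3: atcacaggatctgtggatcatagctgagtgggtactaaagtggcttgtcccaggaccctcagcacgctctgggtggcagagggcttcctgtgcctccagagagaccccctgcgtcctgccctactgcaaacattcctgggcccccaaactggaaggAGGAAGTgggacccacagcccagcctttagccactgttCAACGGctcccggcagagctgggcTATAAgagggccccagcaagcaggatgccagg
Ctsg: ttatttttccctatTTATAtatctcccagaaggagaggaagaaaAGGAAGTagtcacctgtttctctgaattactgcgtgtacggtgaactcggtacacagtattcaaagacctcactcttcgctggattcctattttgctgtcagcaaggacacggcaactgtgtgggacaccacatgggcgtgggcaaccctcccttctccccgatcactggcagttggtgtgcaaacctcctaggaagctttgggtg
Mpo: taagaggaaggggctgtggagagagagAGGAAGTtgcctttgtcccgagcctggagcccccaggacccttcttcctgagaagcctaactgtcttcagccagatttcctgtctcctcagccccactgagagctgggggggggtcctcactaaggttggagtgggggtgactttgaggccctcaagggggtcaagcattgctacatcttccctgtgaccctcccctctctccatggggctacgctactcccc

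Prtn3 and Elane are direct neighbours on chromosome 10 and carried the same 3 cores in the same order. In Elane the ETS core lay 84 to 78, the Myb-type core 51 to 46 and the TATA-type core 31 to 27 bases upstream of the start. In Prtn3 they lay 94 to 88, 56 to 51 and 32 to 28 bases upstream. The ETS core of Ctsg lay 206 to 200 and that of Mpo 223 to 217 bases upstream, and Ctsg had a TATA-type core on the opposite strand, 236 to 232 bases upstream. AGGAAGT occurred in 4 of the 4 promoters and in 7.69% of 32851 promoters of the same length. CAACGG occurred in Elane and Prtn3 and in 4.05% of all promoters, TATAA in 3 of the 4 and in 22.8%, and the ETS and Myb-type cores together in 0.298%. Because the cores were chosen from these 4 sequences, the shares are a description and nothing is read from them. A match describes these letters and does not show that a factor binds there.

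Values are normalized counts, that is reads divided by 1 size factor per library, and folds are on the log2(value + 1) scale, which understates changes of low genes. Cre libraries held 9.73 to 56.8 M reads (M for mega) and GFP libraries 0.617 to 14.9 M reads. All 10 listed monocyte markers were detected in every Cre monocyte library, and all 10 listed microglia markers in every microglia library. The microglia markers were also all detected in every Cre monocyte library. They summed to between 22652 and 39769 normalized counts in KO monocytes and between 24554 and 33426 in control monocytes, beside 257992 to 321969 in KO microglia and 204991 to 314293 in control microglia. GFP monocyte libraries held 6 to 10 of the 10 monocyte markers, with 6 in GFP monocytes 3. The part of this overlap in the protease values was not tested. Cxcr4 itself had 784, 1010 and 536 normalized counts in KO monocytes, against 1183, 1332 and 1166 in control monocytes. The groups did not overlap, but the difference was not called by limma (log2 fold -0.70, SE 1.10, adjusted p 0.962). That fit took 1 spread from all Cre libraries, microglia included, where Cxcr4 lay between 0 and 7.88 normalized counts. Its SE is thus not the spread of monocytes alone. Values summed over the gene cannot tell which exons a deletion took.

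Elane RNA was present in every KO monocyte library and in no control monocyte library. It had 2161, 306 and 119 normalized counts in KO monocytes 1, 2 and 3, from 2491, 817 and 178 reads, against 0 in all 3 control monocyte libraries. KO monocytes 1 stood highest by far, and the groups did not overlap. The mean was 862 ± 1129 in KO monocytes (SD, n = 3). Against a floor of 3 reads over the control group, Elane was at least 720-fold higher in KO monocytes. The bound was 177 without KO monocytes 1 and 356 without control monocytes 1, where fewer control reads raise the floor.

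Depth bears on the zeros, since KO monocytes held 111.1 M reads in all and control monocytes 51.14 M. At the lowest Elane level of a KO monocyte library, 5.82 RPM (reads scaled to a library of 1 M), control monocytes 1, 2 and 3 would have held 152, 60.5 and 84.4 reads, and they held 0. Their 0 reads allow up to 0.114, 0.288 and 0.207 RPM. Such limits cover counting error only, because PCR copies without molecular identifiers were counted as reads.

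Prtn3, the protease encoded next to Elane, had 732, 468 and 248 normalized counts in KO monocytes, against 0, 0 and 12.8 in control monocytes. The control value came from 10 reads in control monocytes 3, and every KO library was above it. Means were 483 ± 243 in KO monocytes and 4.26 ± 7.38 in control monocytes (SD, n = 3 each), a ratio of 113. Without control monocytes 3 the controls were all at 0 and the ratio became a bound of at least 277. It was 75.5 without control monocytes 1 or 2 and 83.9 without KO monocytes 1.

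Ctsg, the chymotrypsin-like protease of the granule, had 752, 350 and 58.1 normalized counts in KO monocytes, against 0, 0 and 98.5 in control monocytes. Here the groups overlapped, since control monocytes 3, with 77 reads, lay above KO monocytes 3, with 87 reads at greater depth. Means were 387 ± 349 in KO monocytes and 32.8 ± 56.8 in control monocytes (SD, n = 3 each), a ratio of 11.8. That ratio was 6.21 without KO monocytes 1 and at least 222 without control monocytes 3.

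Mpo was read in KO monocytes 1 and 2 and in no other monocyte library of the Cre line. It had 819, 462 and 0 normalized counts in KO monocytes, against 0 in all 3 control monocyte libraries. KO monocytes 3, with 30.6 M reads, lacked Mpo although it held Elane, Prtn3 and Ctsg, so the groups overlapped at 0. The mean was 427 ± 411 in KO monocytes (SD, n = 3), at least 356-fold above the floor of the controls. This bound was 193 without KO monocytes 1 and 176 without control monocytes 1. At the lower of its 2 detected levels, 21.7 RPM, Mpo would have given 569, 226 and 315 reads in control monocytes 1, 2 and 3.

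**Figure D1:**
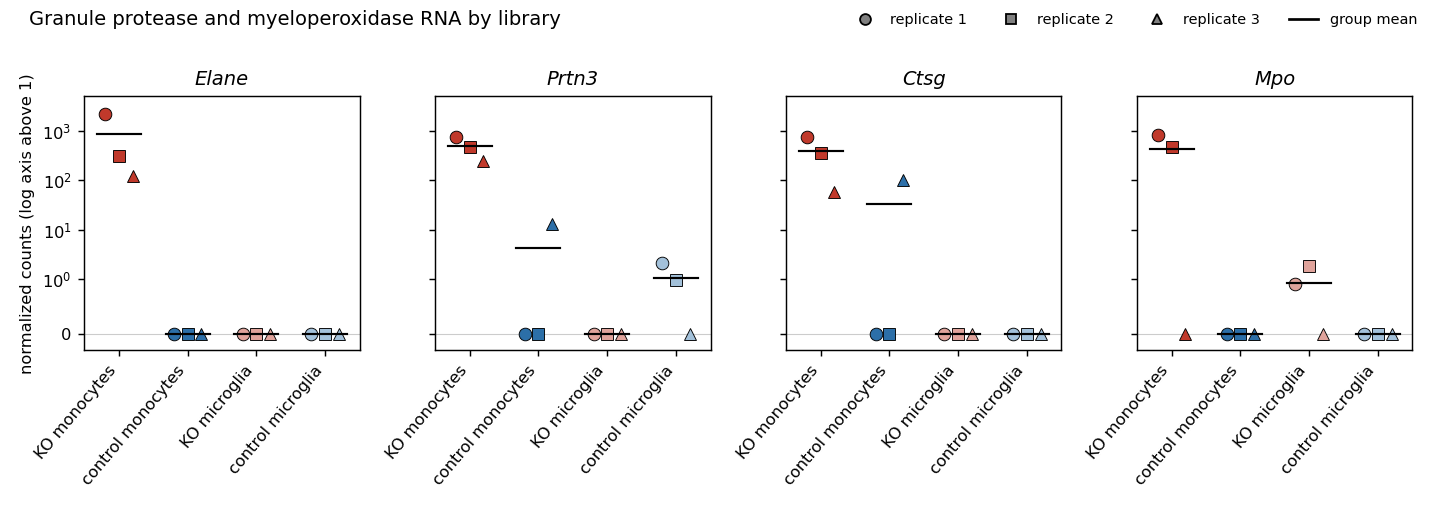
Normalized counts of Elane, Prtn3, Ctsg and Mpo in each of the 12 Cre libraries (points, with a shape for each replicate number) and group means (lines), on an axis that is logarithmic above 1 and linear below. KO monocytes reach 2161 for Elane, control monocytes are above 0 only in replicate 3 for Prtn3 and Ctsg, and no microglia library passes 2.11.

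On the log2(value + 1) scale the differences between KO and control monocytes were 8.75 for Elane, 7.52 for Prtn3, 5.75 for Ctsg and 6.18 for Mpo. Elane, Prtn3 and Ctsg passed the filter of 10 normalized counts in at least 3 Cre libraries, and they passed it through the KO monocytes, while Mpo did not pass. Limma called 5 of 12432 tested genes, or 0.0402%, while edgeR, a filter at 50 and a fit of monocytes alone called 0, with 869, 651 and 501 unadjusted p under 0.05. No call of the 4 genes is used, since this contrast chose them. Elane and Prtn3 lay higher without overlap between groups, as did 4.67% of tested genes. Elane was also one of 22 genes, 0.136% of the 16140 listed, at 0 in every control monocyte library and at 10 or more in every KO monocyte library, and it had the highest mean of the 22. The reverse pattern held for 3 genes, or 0.0186%. These counts describe where the genes stand, and nothing is read from them. In bulk RNA, fewer cells of a type and less RNA per cell cannot be told apart.

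The 4 genes together had 4465, 1586 and 425 normalized counts in KO monocytes 1, 2 and 3, against 0, 0 and 111 in control monocytes. Per kilobase of transcript, the mixture differed among the 3 KO libraries. Elane made up 55.5%, 24.2% and 28.7% of the summed reads per kilobase in KO monocytes 1, 2 and 3. Prtn3 made up 18.0%, 35.5% and 57.5%, and so led in KO monocytes 2 and 3. Ctsg held 19.0%, 27.2% and 13.8%, and Mpo 7.52%, 13.1% and 0%.

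**Figure D2:**
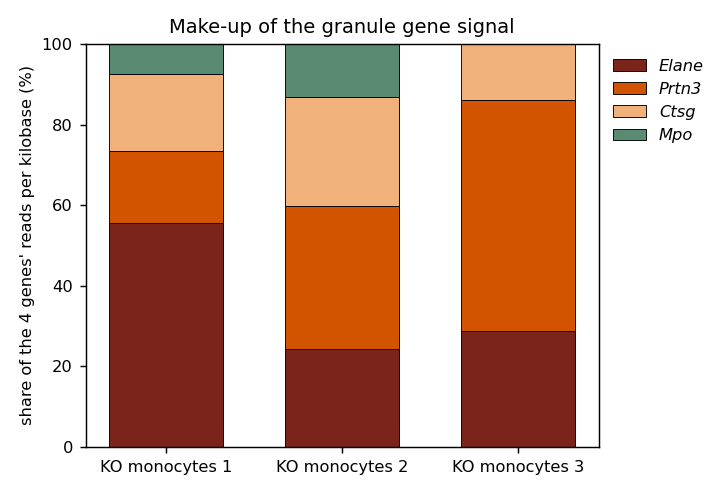
Share of each gene in the summed reads per kilobase of the 4 genes, in percent, for the 3 KO monocyte libraries (stacked bars). Elane leads in KO monocytes 1 at 55.5%, Prtn3 leads in the other 2 libraries, and Mpo is missing from KO monocytes 3.

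Read assignment was checked on the coding transcripts of GENCODE M21, because genes with shared sequence can share reads. Elane, Prtn3 and Ctsg, with longest coding transcripts of 984, 1025 and 1002 bases, had 0 stretches of 31 bases in common with other genes. Mpo, with 2750 bases, shared 427 of its 3117 distinct stretches with 195 other genes, so part of its reads could be split with them. The annotation used by the authors is not given in the sources used here.

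The microglia libraries held almost no RNA of these genes. Elane and Ctsg had 0 reads in all 6 of them. Prtn3 had 0 in all 3 KO microglia libraries, against 2.11, 0.985 and 0 normalized counts in control microglia, from 3, 1 and 0 reads. Mpo had 0.912, 1.87 and 0 in KO microglia, from 1 read in each of the first pair, against 0 in control microglia. Two-sided exact permutation tests over 3 and 3 libraries gave p 0.4 for Prtn3 and for Mpo. For both permutation tests the adjusted p was 0.8, over 4 tests of which 2 were in the GFP libraries. The smallest p this design allows without ties is 0.1. Each gene was above 0 in only 2 libraries, both of the same group, and tied at 0 in the rest. No p below 0.4 was then possible, so these tests decide nothing. Limma called 4 of 12432 genes between KO and control microglia, 0.0322%. Elane, Prtn3 and Ctsg entered that fit through monocyte libraries alone, and Mpo did not enter it. The fit thus says nothing of these genes in microglia.

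Values of monocytes and microglia are set side by side with no test, because the monocyte libraries were used to choose the genes. Mean Elane was 862 in KO monocytes and 0 in KO microglia, and it was 0 in both control populations. For Prtn3 the order of means was KO monocytes at 483, control monocytes at 4.26, control microglia at 1.03 and KO microglia at 0. The last 3 means differ by less than the SD of control monocytes, 7.38. Ctsg ran from 387 in KO monocytes through 32.8 in control monocytes to 0 in both microglia groups, and the SD of 56.8 in control monocytes spans the last step. Mpo followed with 427 in KO monocytes, 0.928 in KO microglia and 0 in both control groups.

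Some animals gave both populations. The mouse of KO monocytes 1, the library with most Elane, gave KO microglia 2, where Elane, Prtn3 and Ctsg were at 0 and Mpo had 1 read. That microglia library did hold 2089 normalized counts of S100a8, a neutrophil and monocyte calcium-binding protein, and 350 of the granule peptide Camp. The mouse of control monocytes 3, the control with Ctsg, gave control microglia 3, in which all 4 genes were at 0.

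In the Cxcr4-GFP mice, Prtn3, Ctsg and Mpo were read, and Elane was not analysed here. GFP monocytes 4 had 2.42 normalized counts of Prtn3, from 1 read, and 4.85 of Ctsg, from 2 reads. Both were at 0 in the other 3 GFP monocyte libraries and in all 4 GFP microglia libraries, and Mpo was at 0 in all 8. An exact two-sided permutation test gave p 1 for Prtn3 and for Ctsg (adjusted 1 over 4 tests, smallest possible p 0.0286 without ties). Each gene was above 0 in a single library, so no other p was possible and the test decides nothing. None of the 3 passed the filter of 10 in at least 4 libraries, where limma called 70 of 7706 genes, or 0.908%. With 0 reads, GFP monocytes 1, 2 and 3 allow up to 1.23, 0.201 and 3.40 RPM of Ctsg, so levels below these limits could go undetected. GFP monocytes 3 had only 3029 genes detected. The ribosomal RNA transcript Rn45s took 23.2 to 28.4% of the reads of GFP monocyte libraries, and these reads are part of the totals behind the limits. GFP and Cre libraries were made with different kits and normalized separately, and their levels are not compared.

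Few genes that accompany the proteases in the granule, or in the cells that make it, passed a test between KO and control monocytes. Over 8 lists of related genes, 87 distinct genes were in the table and 68 were tested, of which limma called 0, edgeR 0 and DESeq2 1. DESeq2 called 316 of all 12432 tested genes, or 2.54%, beside 1.47% of the 68. By limma 5 of the 68 had an unadjusted p under 0.05, or 7.35%, beside 6.08% of all tested genes, and 40 of the 68 had a positive fold, beside 52.4% of all. Their median log2 fold was 0.18, beside 0.05 over all tested genes. The lists were chosen with earlier results of these data known.

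Of 10 tested genes for packaging and activation, 0 were called in either direction, 2 had an unadjusted p under 0.05, 6 were positive and the median log2 fold was 0.13. Ctsc, the dipeptidyl peptidase that trims Elane, Prtn3 and Ctsg to their active forms, had 25732, 22954 and 25832 normalized counts in KO monocytes, against 15679, 16810 and 15466 in control monocytes. The Ctsc groups did not overlap, and its log2 fold of 0.63 (SE 0.16) had an adjusted p of 0.359 by limma, though it was the gene called by DESeq2. For Rab27a, a small GTPase of granule release, the log2 fold was 1.44 with an SE of 0.40 and an adjusted p of 0.465 by limma. Srgn, the proteoglycan that holds proteases in the granule, had means of 49165 ± 4501 in KO monocytes and 46122 ± 15508 in control monocytes (SD, n = 3 each). Srgn was thus abundant in control monocytes 1 and 2 as well, at 51451 and 58263, where all 4 granule genes were at 0.

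Protease inhibitors had negative folds in all 4 tested genes, with a median of -1.12, though 1 of the 4 was positive with edgeR, with DESeq2 and without KO monocytes 2 or 3. Limma called 0 of them, with 0 unadjusted p under 0.05, and edgeR and DESeq2 called 0. Serpinb1a, which inhibits Elane, Prtn3 and Ctsg, had 0, 0 and 30.7 normalized counts in KO monocytes, against 103, 388 and 1.28 in control monocytes. The Serpinb1a groups overlapped (log2 fold -3.84, SE 2.33, adjusted p 0.859 by limma). BC100530, a stefin-type inhibitor, had a log2 fold of -1.80 and an adjusted p of 0.923, and the fold was -0.11 without control monocytes 3.

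Among 9 tested regulators of granule genes, 6 were positive, the median was 0.17, and 0 were called by limma, edgeR or DESeq2, with 0 unadjusted p under 0.05. The median was -0.22 with edgeR, -0.28 with DESeq2 and -0.21 without control monocytes 2. Spi1, which encodes PU.1, had 1813, 613 and 1112 normalized counts in KO monocytes, against 1426, 1685 and 1183 in control monocytes, overlapping. Cebpe, a factor of the later granulocyte stages, was at 2.60, 0 and 0 in KO monocytes and 0 in control monocytes. Gfi1, a repressor needed for granulocyte development, was at 0, 239 and 0 in KO monocytes and 0 in control monocytes. Cebpe and Gfi1 did not pass the filter and are not among the 9 tested. Irf8 and Cebpb had the smallest p by limma. Irf8, a factor of monocyte and dendritic cell development, had 1105, 867 and 1295 normalized counts in KO monocytes, against 909, 6.58 and 1496 in control monocytes. The groups overlapped, and the log2 fold of 2.30 (adjusted p 0.861 by limma) became -0.12 without control monocytes 2, the low library. Cebpb had a log2 fold of -0.55 (adjusted p 0.896).

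Progenitor and promyelocyte markers gave 6 positive folds of 11 tested and a median of 0.29 (0.00 without control monocytes 1), with 0 called by limma, edgeR or DESeq2 and 0 unadjusted p under 0.05. Ms4a3, a marker of granulocyte-monocyte progenitors, had 643, 22.5 and 0 normalized counts in KO monocytes and 0 in control monocytes. Ms4a3 did not pass the filter and is not among the 11 tested. Kit, the stem cell factor receptor, was at 49.5, 54.4 and 28.1 in KO monocytes and 3.16, 0 and 57.5 in control monocytes (log2 fold 2.79, adjusted p 0.852 by limma). Cst7, a cystatin, had 163, 270 and 368 in KO monocytes, against 84.5, 0 and 370 in control monocytes. The groups overlapped, and the log2 fold of 3.01 (adjusted p 0.847 by limma) was 0.51 without control monocytes 2. That of Kit was 1.47 without the same library. Negative folds were found in 4 of the 11. Hdc, 1 of these 4, had 256, 365 and 293 normalized counts in KO monocytes, against 598, 582 and 435 in control monocytes, without overlap. Its log2 fold was -0.82 (adjusted p 0.986 by limma). The others were Prom1 (-0.89), Cd34 (-0.78) and Flt3 (-0.19).

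Genes of the later neutrophil granules had 9 positive folds of 14 tested and a median of 0.58, which became -0.14 without KO monocytes 1. With edgeR and with DESeq2 12 of the 14 were positive and the medians were 0.87 and 0.84. Of the 14, 0 were called by limma, edgeR or DESeq2, with 0 unadjusted p under 0.05. Lactoferrin (Ltf), the secondary granule marker, had 522, 0 and 0 normalized counts in KO monocytes, against 100, 10.97 and 71.6 in control monocytes (log2 fold -2.46, adjusted p 0.905 by limma). Lcn2, the iron-scavenging lipocalin, had 708, 429 and 188 in KO monocytes, against 74.2, 0 and 80.6 in control monocytes, without overlap (log2 fold 4.40, adjusted p 0.830, and 2.30 without control monocytes 2). Ngp had 2564, 26.3 and 0.668 in KO monocytes, against 0, 110 and 234 in control monocytes. KO monocytes 2 and 3 thus held Elane with Ltf at 0, while all 3 control monocyte libraries held Ltf with Elane at 0. Not all genes of this list followed Ltf. In KO monocytes 2 and 3 Lcn2 was at 429 and 188, and Mmp8 at 590 and 677, beside 242, 790 and 386 for Mmp8 in control monocytes.

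Mature neutrophil markers had 10 positive folds of 12 tested (8 with edgeR and with DESeq2) and a median of 0.74, with 3 unadjusted p under 0.05 and 0 called by limma, edgeR or DESeq2. Csf3r, the receptor for granulocyte colony-stimulating factor, had 807, 202 and 244 normalized counts in KO monocytes, against 1468, 1075 and 1271 in control monocytes (log2 fold -1.88, SE 0.59, adjusted p 0.589 by limma). Its groups did not overlap. Mrgpra2b, a Mas-related receptor of neutrophils, had a log2 fold of 4.62 and an adjusted p of 0.762, and the fold was 2.01 without control monocytes 2. The enzymes that supply Mpo with hydrogen peroxide and the other haem peroxidases had 3 positive folds of 6 tested and a median of 0.04, which turned to -0.08 without KO monocytes 1 and -0.05 without control monocytes 2. Of these 6, 0 were called by limma, edgeR or DESeq2, with 0 unadjusted p under 0.05. Ncf1, a subunit of the phagocyte oxidase, had a log2 fold of -0.32 and an adjusted p of 0.927 by limma. Proteins cleaved by the proteases or engaged with them in mobilisation had 1 positive fold of 4 tested, a median of -0.45, 1 unadjusted p under 0.05 (Csf3r) and 0 called by limma, edgeR or DESeq2.

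**Figure D3:**
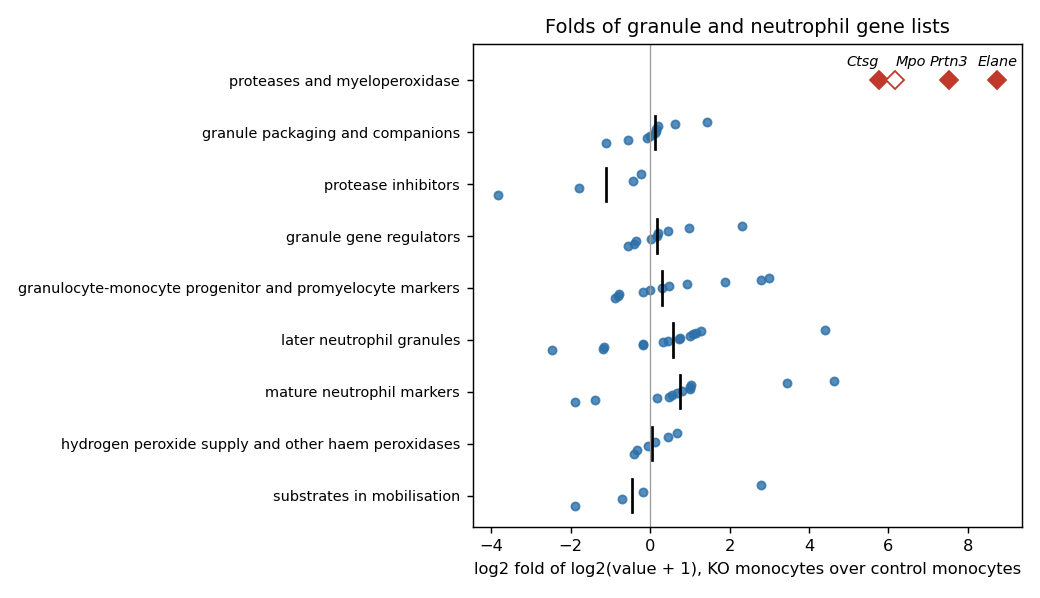
Log2 fold of log2(value + 1), KO monocytes over control monocytes, for Elane, Prtn3, Ctsg and Mpo (diamonds, Mpo open because it did not pass the filter) and for the tested genes of 8 lists (points, with the list median as a bar). The 4 lie between 5.75 and 8.75, and list medians lie between -1.12 and 0.74.

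Markers of other granulocytes were read beside the proteases, library by library. The 10 neutrophil markers summed to between 40238 and 74821 normalized counts in KO monocytes and between 18026 and 42487 in control monocytes, with 8 to 10 and 9 to 10 detected. S100a8, a gene of neutrophils and monocytes alike, was the largest part of each sum. It had 47075, 38567 and 28295 normalized counts in KO monocytes, against 10982, 29643 and 20080 in control monocytes. Camp and Ltf were at 0 in KO monocytes 2, Ltf in KO monocytes 3, Ngp in control monocytes 1 and Ly6g in control monocytes 2. The 8 eosinophil markers summed to between 22.5 and 4291 in KO monocytes and between 35.8 and 324 in control monocytes. For the 9 progenitor markers the sums were between 270 and 1125 in KO monocytes and between 266 and 555 in control monocytes. The same 9 summed to between 747 and 942 in KO microglia and between 312 and 1248 in control microglia, where the proteases were almost absent. The part of all these markers in the protease values was not tested.

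The highest eosinophil sum was in KO monocytes 1, the library with most Elane, Prtn3, Ctsg and Mpo. There the eosinophil granule genes Prg2, Epx, Prg3 and Ear1 had 2591, 318, 180 and 572 normalized counts, and 7 of the 8 markers were detected. Ear6 and Siglecf, at 437 and 176, were also highest there among Cre monocyte libraries. Ccr3 was at 0 there, with 196 in KO monocytes 3 and 25.3, 68.0 and 11.5 in control monocytes. Il5ra had 16.5 in KO monocytes 1, against 175 in control monocytes 1, which also held Prg2 at 117. KO monocytes 2 and 3 were at 0 for Prg2, Epx, Prg3 and Ear1, and held Ear2, which is not among the listed markers, at 687 and 194. KO monocytes 2 instead held Mcpt8, a basophil protease encoded next to Ctsg, at 316, and Mcpt8 was at 0 in the other 5 Cre monocyte libraries. Control monocytes 3, the control with Ctsg and Prtn3, was the only Cre monocyte library with the basophil protease Prss34, at 129. Of 10 mast cell and basophil markers looked up, 3 had values in the Cre libraries, and no Cre monocyte library held more than 1 of them.

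**Figure D4:**
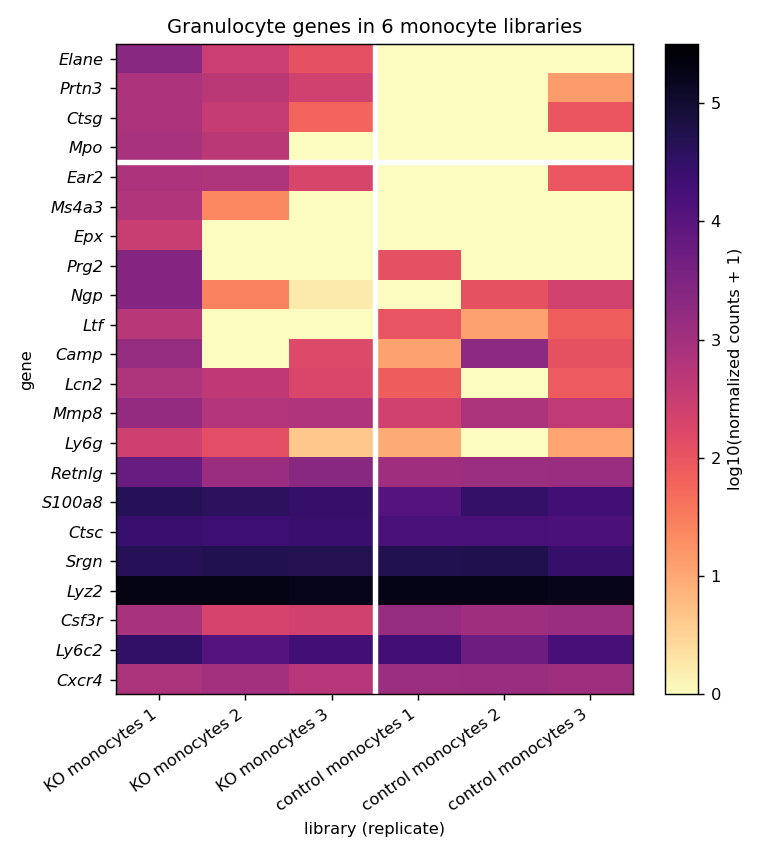
Levels of 22 genes in the 3 KO and 3 control monocyte libraries, as log10(normalized counts + 1) in colour, with Elane, Prtn3, Ctsg and Mpo in the top 4 rows and other granulocyte and monocyte genes below, picked after their values were seen. Epx is above 0 in KO monocytes 1 alone, at 318, while Srgn and Lyz2 are high in all 6 libraries.

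Across the 12 Cre libraries, Pearson's r of log2(value + 1) was 0.948 between Elane and Prtn3, 0.951 between Prtn3 and Ctsg and 0.868 between Elane and Ctsg. Mpo had r between 0.756 and 0.849 with the 3 proteases. Most of these libraries are at 0, so the coefficients rest largely on the 3 KO monocyte libraries, and libraries of 1 animal are not independent. Over the 6 monocyte libraries r ran from 0.735 to 0.936.

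The genes most like the 4, by mean r over the 12 libraries, were Tnfrsf18 (0.906), Ear2 (0.893), Upp1 (0.886), Clec4a4 (0.886), Ly6g (0.859), Mrgpra2a (0.849), F7, Sf3b5, Sh2d1b2 and Rpl7a. Ear2, an eosinophil-associated ribonuclease, had 735, 687 and 194 normalized counts in KO monocytes, against 0, 0 and 93.3 in control monocytes, and so was above 0 in the same 4 monocyte libraries as Ctsg. Tnfrsf18, a receptor of the tumour necrosis factor family, had 285, 128 and 82.1 in KO monocytes and 0 in control monocytes. Ly6g, the neutrophil surface antigen, had 258, 123 and 3.34 in KO monocytes, against 8.69, 0 and 10.2 in control monocytes. Over the 6 monocyte libraries the order began with Uevld (0.924), Nr2c2ap (0.915) and Erap1 (0.914), followed by Dhrsx, Olfr597, Nob1, Pcnx, Pim2, Nfatc2ip and Nhsl2.

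Genes beside the 4 on the chromosome were looked up in RefSeq order. Of 30 neighbours within 5 places, 17 were in the table and 10 were tested. Their median log2 fold between KO and control monocytes was -0.09, and their smallest adjusted p by limma was 0.781, for Palm. Ptbp1, a splicing regulator near Prtn3, had 884, 144 and 645 normalized counts in KO monocytes, against 237, 445 and 483 in control monocytes. Palm, 4 places from Prtn3, had 13.9, 21.0 and 1.34 in KO monocytes, against 178, 121 and 111 in control monocytes. Epx, the eosinophil peroxidase 3 places from Mpo, was read in KO monocytes 1 alone.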

How the data were processed

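RNA of 20 libraries was measured. Per the submitters' processing notes, the GFP table (total RNA, Nugen Ovation SoLo) was made with CASAVA 1.82 and DESeq2, and the Cre table (polyA RNA, SMART-Seq2) with bcl2fastq 2.20, kallisto and DESeq2. The genome build is not given in the sources used here. What the authors deposited is a signal, that is gene counts scaled by 1 size factor for each library. Whole reads were recovered from them: 100% of values lay within 0.01 read of a whole multiple.

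Genes with 10 or more in at least 3 Cre or 4 GFP libraries were tested as log2(value + 1) with limma 3.58.1 (trend, two-sided) under R 4.3.3, and called at a Benjamini-Hochberg adjusted p under 0.05 across the table. Also run were a pseudocount of 10, filters at 0 and 50, other scalings, edgeR 4.0.16, DESeq2 1.42.0, fits of the compared population, leaving out libraries, and the animal as a replicate block. Labels give the animal, and same-animal pairs had r between -0.06 and 0.01 (Cre) and between -0.11 and 0.24 (GFP) in deviations from group means. P-values measure the spread between libraries. The main Cre fit took 1 spread per gene over both populations, so its monocyte SEs and p-values include the spread of microglia. No adjusted p is given for a list alone. The genes and lists were chosen with earlier results of these data known. Named list genes are those with the smallest p, up to 2 a list where none was called, and genes most like the 4 by mean r; other genes named were chosen after their values were seen. A gene that this rule names is not reported here.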

Additional observations from a re-analysis of the deposited data

Results flagged for a closer look

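GFP monocytes 4 stood apart from the other 3 GFP monocyte libraries in Prtn3, at 2.42 normalized counts, and in Ctsg, at 4.85, where the others were at 0. These are 1 and 2 reads in a library of 0.648 M reads. A gap test of this kind flags about 1 in 20 groups by chance, and any group with a single value above 0 meets it.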

How the results depend on the processing

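Between KO and control monocytes, the count of 5 called genes became 0 with a filter at 50, 0 with edgeR, 316 with DESeq2 and 0 in a fit of monocytes alone, and it ran from 2 to 30 when 1 library was left out. Without KO monocytes 1, 2 or 3 it was 3, 8 or 13, and without control monocytes 1, 2 or 3 it was 30, 2 or 26. Where none was called, 651 (filter at 50), 869 (edgeR) and 501 (monocytes alone) genes had an unadjusted p under 0.05. Between KO and control microglia, the count of 4 became 0 with a filter at 50, 0 with edgeR, 108 with DESeq2 and 0 in a fit of microglia alone, and ran from 0 to 8 with 1 library left out, while 343, 372 and 558 genes had an unadjusted p under 0.05 with the filter at 50, with edgeR and in microglia alone. In the GFP mice the count of 70 became 198 with a pseudocount of 10, 38 without a filter, 15 with upper quartile scaling and 181 with DESeq2, and ran from 33 to 129. With the animal as a replicate block these counts were 5, 4 and 60.

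The log2 folds of Elane, Prtn3 and Ctsg were 5.48, 5.10 and 3.58 with a pseudocount of 10. Elane was 12.99 with edgeR and 11.81 with DESeq2, and Ctsg 3.58 and 3.56. Leaving out 1 library gave 7.58 to 9.67 for Elane, 6.89 to 8.78 for Prtn3, 4.65 to 7.97 for Ctsg and 4.43 to 9.27 for Mpo. All stayed positive under each alternative run. Mpo did not pass the filter, so edgeR and DESeq2 gave no value for it. The cause of these differences was not tested. For depth, 1 read equals 0.104 to 2.58 normalized counts in GFP libraries and 0.375 to 2.19 in Cre libraries.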

Other observations

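Beside Elane, 21 other genes were at 0 in every control monocyte library and at 10 or more in every KO monocyte library. Sh2d1b1, an adaptor of natural killer cell receptors, averaged 521 normalized counts in KO monocytes, Ift140 501 and Upp1 348. Il12b, the p40 chain of interleukin 12, averaged 146 in KO monocytes. The 3 genes with the reverse pattern were Slc25a14, Rtn4ip1 and S1pr5, with means of 430, 125 and 26.0 in control monocytes. Genes at 0 in a whole group were thus found in both directions, with more of them at 0 in control monocytes, which held fewer reads in all. The part of depth in this was not tested.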
